A study of Mus musculus with 16 samples.

Results

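Signals that support IgA-producing B cells were followed through 9 genes: the ligands Tnfsf13 (APRIL) and Tnfsf13b (BAFF), the receptors Tnfrsf13b (TACI) and Tnfrsf13c (BAFF-R), the cytokines Tgfb1 and Il21, the chemokine Cxcl13 with its receptor Cxcr5, and the epithelial antibody transporter Pigr. They were chosen by symbol for these roles, with earlier results of these data known, and make up 9 of the 35647 genes in the table. The libraries came from germ-free mice of wild-type genotype, colonized for 5 weeks with a single bacterium, Bifidobacterium breve, either Δchat, a strain that does not produce acetylcholine, or WT. Immune cells of the lamina propria, the connective tissue layer under the gut lining, were isolated from ileum and colon on a Percoll gradient of 40% and 80%, and their poly-A RNA was sequenced in bulk. The 4 groups were colon Δchat, colon WT, ileum Δchat and ileum WT, with 4 mice each; colon and ileum libraries of the same strain and replicate number were read as 1 mouse. Age and sex of the mice are not given in the sources used here.

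BAFF and APRIL are TNF-family ligands made largely by myeloid and stromal cells; BAFF binds BAFF-R and keeps mature B cells alive, while both ligands bind TACI, which can drive switching to IgA without T cell help, and BCMA (Tnfrsf17), which sustains plasma cells. TGF-beta 1 directs B cells to switch to IgA, and IL-21 from helper T cells promotes their differentiation to plasma cells. CXCL13 draws CXCR5-bearing B cells into follicles, and the product of Pigr carries dimeric IgA across the epithelium into the gut lumen.

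The libraries held 15.9 to 23.6 M estimated counts. Markers of B cells and plasma cells were present in all groups, and none of 15 B cell or 17 plasma cell markers was at 0 in a group. Of 8 eosinophil markers, 2 were at 0 in each colon group and 1 in each ileum group. Libraries stood apart in 2 ways that touch these genes. Colon Δchat replicate 3 had a summed level of 4235 CPM over 20 epithelial markers (CPM, counts relative to the scaled library size), against 58.0 to 538 CPM in the other 15 libraries. Every colon Δchat library was above every colon WT library on this sum, at 290 to 4235 CPM against 58.0 to 252 CPM. In colon, the epithelial marker level and strain therefore cannot be fully told apart, also without replicate 3. In ileum Δchat, the summed level of 15 B cell markers was 2570 and 2249 CPM in replicates 1 and 4 and 687 and 601 CPM in replicates 2 and 3, a range wider than the 808 to 1624 CPM of ileum WT. In bulk RNA, fewer cells of a type and less RNA per cell cannot be told apart.

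Sequence matters for 1 ligand. Tnfsf13 shares 983 exon bases, 60% of its own exon bases, with Tnfsfm13, a gene whose transcripts join the upstream neighbour Tnfsf12 to Tnfsf13 on the minus strand of chromosome 11. The following 60 bases of a transcript of each gene (GENCODE M21, GRCm38) are shown because they mark where estimated counts stop being separable. Capitals mark the last 30 bases that differ in origin, and the lower-case bases open a common stretch of 784 bases.
Tnfsf13-201: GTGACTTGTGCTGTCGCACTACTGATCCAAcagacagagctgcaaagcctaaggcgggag
Tnfsfm13-202: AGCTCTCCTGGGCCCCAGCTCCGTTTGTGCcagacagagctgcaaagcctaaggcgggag
Reads inside the common stretch were divided between both genes by the authors' quantification, so Tnfsf13 values are uncertain and are given below alone and summed with Tnfsfm13.

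Levels per length set the scale of the 9 genes. In CPM per kilobase of merged exons, Tgfb1 had group means of 43.3 in colon Δchat, 44.1 in colon WT, 43.2 in ileum Δchat and 37.3 in ileum WT, the narrowest relative range of the genes tested. Cxcr5 had group means of 36.0, 63.6, 11.7 and 13.5 CPM per kilobase in the same group order, and Tnfrsf13b 12.9, 22.7, 21.2 and 28.0. The ligands were low throughout: Tnfsf13 lay between 1.64 and 3.06 and Tnfsf13b between 1.13 and 2.55 CPM per kilobase.

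**Figure D1:**
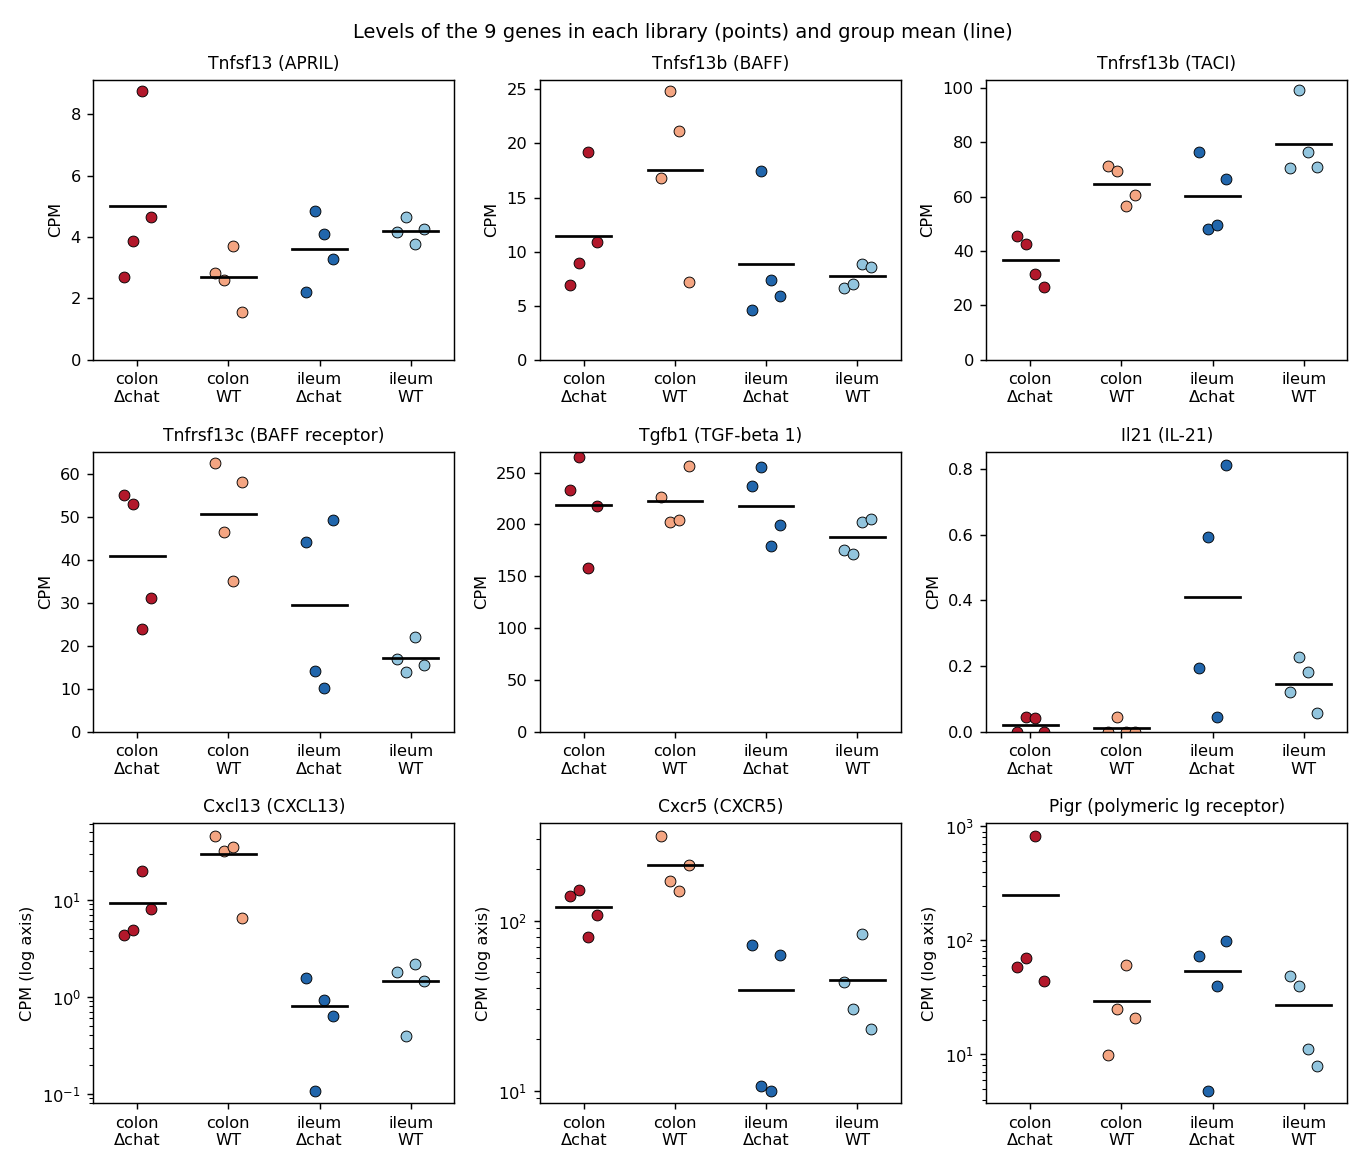
Level of each gene in every library, in CPM, with points for the 4 libraries of each group and a line at their mean. The axis is log for Pigr, Cxcl13 and Cxcr5 and linear for the other genes. Cxcl13 separates ileum from colon in both strains, and Pigr has 1 colon Δchat library at 823 CPM.

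The strain comparison asked whether loss of bacterial acetylcholine production went with a different level of these signals in colon. No gene of the 8 that passed the filter on low counts was called, against 1 of 14660 genes tested (0.00682%), by edgeR's quasi-likelihood test with Benjamini-Hochberg adjustment at 0.05. Of the 8, 5 had an unadjusted p under 0.05, which 13.3% of all genes had. The median log2 fold change of the 8 (Δchat over WT) was -0.45, beside 0.01 over all genes tested. Because the genes were chosen with earlier results of these data known, neither the count nor the median tests them as a set. Without the epithelium-rich replicate 3 of colon Δchat, the log2 fold change was 0.99 for Pigr, 0.48 for Tnfsf13, -0.97 for Tnfsf13b, -0.75 for Tnfrsf13b, -0.12 for Tnfrsf13c, 0.10 for Tgfb1, -2.37 for Cxcl13 and -0.67 for Cxcr5, none called.

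Among the ligands, Tnfsf13 had 2.71, 3.88, 8.77 and 4.66 CPM in colon Δchat, against 2.84, 2.61, 3.71 and 1.57 CPM in colon WT. The groups overlapped, with the highest value in the epithelium-rich library. The log2 fold change was 0.91 ± 0.40 (SE, edgeR adjusted p = 0.372), but 0.049 with the mean of the epithelial markers as a covariate and 0.35 with that of the B cell markers, an alternative chosen after seeing the data. Summed with Tnfsfm13, the level was 14.9, 14.8, 21.6 and 17.8 CPM in colon Δchat and 11.2, 13.2, 14.5 and 11.1 CPM in colon WT. The summed groups did not overlap, as for 3.59% of genes in that direction, and the log2 fold change of the sum was 0.48 (edgeR adjusted p = 0.324), not called. Tnfsf13b ran the other way, at 6.90, 8.95, 19.2 and 10.9 CPM in colon Δchat and 16.8, 24.9, 21.2 and 7.17 CPM in colon WT. WT replicates 1 and 4 lay within the Δchat range, replicate 4 near its lower end, and its log2 fold change was -0.59 ± 0.42 (edgeR adjusted p = 0.557). With the epithelial or B cell covariate it was -1.37 or -1.14, not called.

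The balance of the ligands was compared within each library. The log2 ratio of Tnfsf13 to Tnfsf13b was -1.32, -1.19, -1.12 and -1.21 in colon Δchat, against -2.52, -3.21, -2.48 and -2.12 in colon WT. Every Δchat library was above every WT library. How many other gene pairs separate in this way was not computed. The means differed by 1.38 (exact 2-sided permutation test, p = 0.0286, the smallest that 4 against 4 allows; 0.133 after Benjamini-Hochberg adjustment over 14 such tests). With Tnfsf13 and Tnfsfm13 summed the difference was 1.03 (exact permutation p = 0.0571). In ileum the ratio averaged -1.12 in Δchat and -0.86 in WT, a difference of -0.26 (exact permutation p = 0.457).

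**Figure D2:**
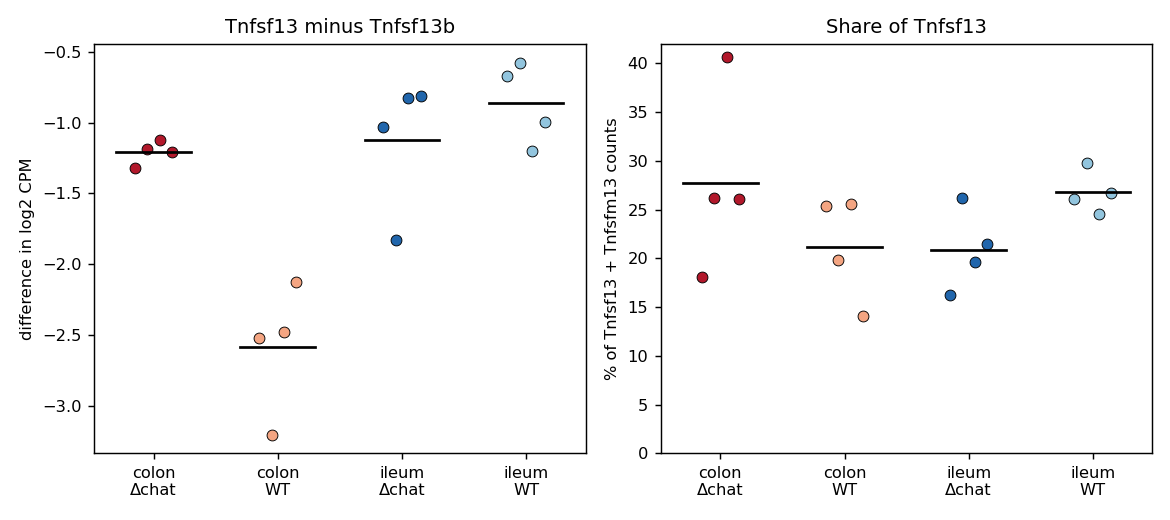
Log2 CPM of Tnfsf13 minus log2 CPM of Tnfsf13b in every library, and the Tnfsf13 share of the summed Tnfsf13 and Tnfsfm13 counts in percent. The share was 18.1% to 40.7% in colon Δchat, 14.1% to 25.6% in colon WT, 16.3% to 26.2% in ileum Δchat and 24.6% to 29.8% in ileum WT.

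Of the receptors, Tnfrsf13b, which binds both ligands, had 45.5, 42.7, 31.6 and 26.6 CPM in colon Δchat, against 71.2, 69.6, 56.4 and 60.6 CPM in colon WT. All Δchat libraries were below all WT libraries. Tnfrsf13b was the 1 gene of the 8 without overlap in this direction, which 3.95% of all genes showed. Its log2 fold change was -0.81 ± 0.17 (edgeR adjusted p = 0.220). DESeq2 gave -0.82 (adjusted p = 0.00342), among 308 of 14660 genes that it called. Plasma cell markers moved with it: their summed level was 24623 to 34742 CPM in colon Δchat and 46700 to 89315 CPM in colon WT, and their part in the difference was not tested. Over the mean of the B cell markers, log2 Tnfrsf13b averaged -2.30 in colon Δchat and -1.89 in colon WT (exact permutation p = 0.0857). Across all 16 libraries it had a Pearson r of 0.912 with plasma cell markers and -0.167 with B cell markers. With group means removed, these were 0.66 and 0.64. A ratio to plasma cell markers was not computed.

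Tnfrsf13c, the BAFF receptor of mature B cells, had 55.0, 53.1, 23.8 and 31.2 CPM in colon Δchat and 62.6, 46.5, 35.0 and 58.2 CPM in colon WT. The groups overlapped, and the log2 fold change was -0.31 ± 0.30 (edgeR adjusted p = 0.672). With the mean of the epithelial markers as a covariate it was 0.33. Tgfb1, the IgA switch cytokine, averaged 218 ± 44.8 CPM in colon Δchat and 222 ± 25.0 CPM in colon WT (SD, n = 4 each), with a log2 fold change of -0.02 ± 0.16 (edgeR adjusted p = 0.967). Il21 failed the filter and was not tested: it had 0, 1, 1 and 0 counts in colon Δchat and 0, 1, 0 and 0 counts in colon WT.

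The chemokine Cxcl13 had 4.37, 4.85, 19.8 and 8.11 CPM in colon Δchat, against 45.5, 32.1, 35.4 and 6.44 CPM in colon WT. The 3 other WT libraries were above all Δchat libraries and WT replicate 4 lay within their range. The log2 fold change was -1.67 ± 0.69 (edgeR adjusted p = 0.361), and -2.78 with the epithelial covariate, not called. That same WT library was also the lowest of its group for Tnfsf13b. Over the 8 colon libraries log2 Cxcl13 and log2 Tnfsf13b had a Pearson r of 0.916, against -0.598 over the 8 ileum libraries. Ileum Cxcl13 rested on only 2 to 49 counts per library, so the ileum r is uncertain.

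Its receptor Cxcr5 had 140, 152, 80.0 and 108 CPM in colon Δchat and 314, 172, 149 and 212 CPM in colon WT. Only the lowest WT library overlapped the Δchat range, and the log2 fold change was -0.82 ± 0.27 (edgeR adjusted p = 0.327). Set against the B cell markers of the same library, log2 Cxcr5 was -0.68, -0.53, -0.72 and -0.50 in colon Δchat and -0.07, -0.27, -0.30 and -0.26 in colon WT. On that scale no library overlapped, and the means differed by -0.38 (exact permutation p = 0.0286, and 0.133 adjusted over the 14 tests). How many other genes separate on that scale was not computed. In the fit, the covariate for B cell markers gave -0.29 (edgeR adjusted p = 0.283) and that for epithelial markers -0.21 (adjusted p = 0.801), neither called. Germinal centre B cell markers, 10 genes with none called, were also lower in summed level without overlap, at 119.7 to 162 CPM in colon Δchat and 186 to 247 CPM in colon WT. Their part in the Cxcl13 and Cxcr5 values was not tested.

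Pigr had 58.5, 70.4, 823 and 44.1 CPM in colon Δchat and 9.76, 25.1, 61.1 and 20.9 CPM in colon WT. The epithelium-rich library was far above the rest. The log2 fold change was 3.12 ± 1.16 (edgeR adjusted p = 0.340), and all 20 epithelial markers had a positive log2 fold change with a median of 3.22, none called. Over the mean of those markers, log2 Pigr averaged 3.02 in colon Δchat and 3.10 in colon WT (exact permutation p = 0.8). With that mean as a covariate the log2 fold change was -0.24.

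**Figure D3:**
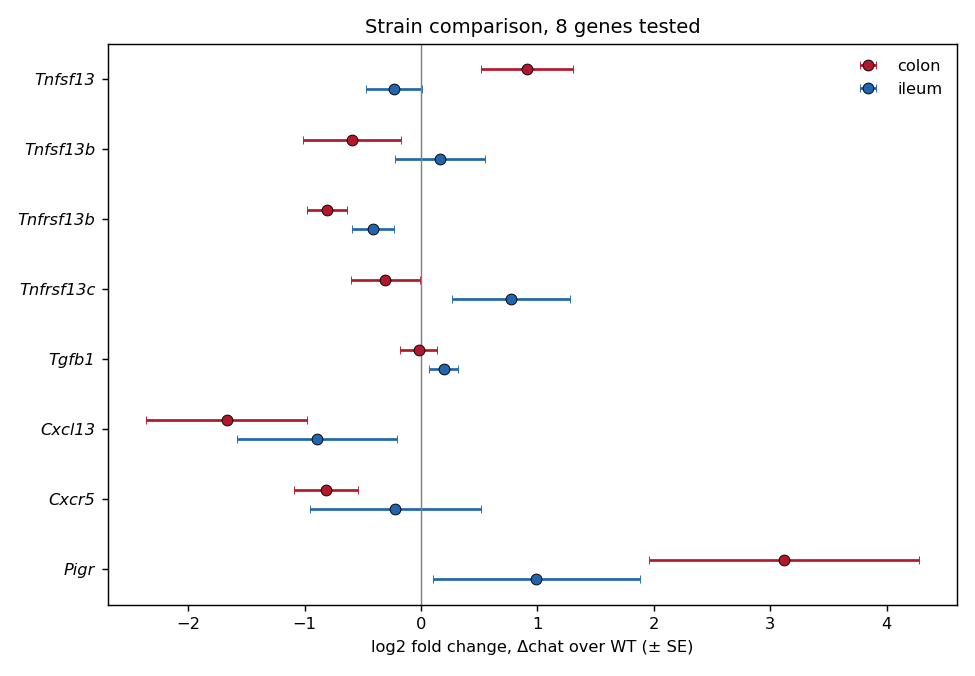
Log2 fold change of Δchat over WT for each gene in colon and in ileum, with its standard error. Below 0 in both tissues are Tnfrsf13b, at -0.81 in colon and -0.41 in ileum, Cxcl13, at -1.67 and -0.89, and Cxcr5, at -0.82 and -0.22. No gene was called.

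In ileum, again none of the 8 genes was called, against 3 of 14496 genes tested (0.0207%, edgeR adjusted p). None had groups without overlap, which 7.44% of all genes had. The median log2 fold change of the 8 was -0.03, beside 0.01 over all genes.

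Tnfrsf13b was the 1 gene with an unadjusted p under 0.05, which 10.9% of all genes had. It was at 76.6, 48.1, 49.6 and 66.4 CPM in ileum Δchat and 70.7, 99.3, 76.3 and 70.8 CPM in ileum WT. Replicate 1 of Δchat lay within the WT range. Its log2 fold change was -0.41 ± 0.18 (edgeR adjusted p = 0.447). Tnfrsf13c had 44.1, 13.99, 10.2 and 49.3 CPM in ileum Δchat, against 16.8, 13.9, 22.1 and 15.5 CPM in ileum WT. Its high Δchat libraries were the 2 with high B cell markers, and the log2 fold change was 0.77 ± 0.51 (edgeR adjusted p = 0.611).

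Cxcr5 followed the same split, at 71.9, 10.7, 9.98 and 62.9 CPM in ileum Δchat and 43.3, 30.1, 83 and 23.0 CPM in ileum WT. The log2 fold change was -0.22 ± 0.74 (edgeR adjusted p = 0.937), and leaving out 1 library at a time moved it between -0.69 and 0.26. Against the B cell markers of the same library, log2 Cxcr5 was -1.07, -1.81, -1.71 and -1.09 in ileum Δchat and -0.55, -0.65, -0.21 and -1.003 in ileum WT. Here too every Δchat library was below every WT library, by -0.82 between means (exact permutation p = 0.0286, and 0.133 adjusted over the 14 tests). The nearest libraries of the groups were at -1.07 in Δchat and -1.003 in WT. The lowest Δchat values were in replicates 2 and 3, the libraries with low B cell markers. With the B cell covariate, an alternative chosen after seeing the data, 34 of 14496 genes were called in ileum. Cxcr5 was among them at -0.93 (edgeR adjusted p = 0.0281), and it was not called in colon with that covariate. The covariate and the ratio use the same B cell markers.

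The other genes showed smaller or scattered differences in ileum. Tnfsf13 averaged 3.61 ± 1.14 CPM in ileum Δchat and 4.21 ± 0.358 CPM in ileum WT, and Tnfsf13b 8.81 ± 5.86 and 7.77 ± 1.10 CPM in the same order (SD, n = 4 each). Tgfb1 averaged 218 ± 34.5 CPM in ileum Δchat and 188 ± 17.6 CPM in ileum WT (edgeR adjusted p = 0.589). Pigr averaged 54.0 ± 40.7 CPM in ileum Δchat and 27.0 ± 20.6 CPM in ileum WT (edgeR adjusted p = 0.713). Il21 had 3, 11, 1 and 19 counts in ileum Δchat and 2, 4, 4 and 1 counts in ileum WT, 48 counts over all 16 libraries, too few to test.

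**Figure D4:**
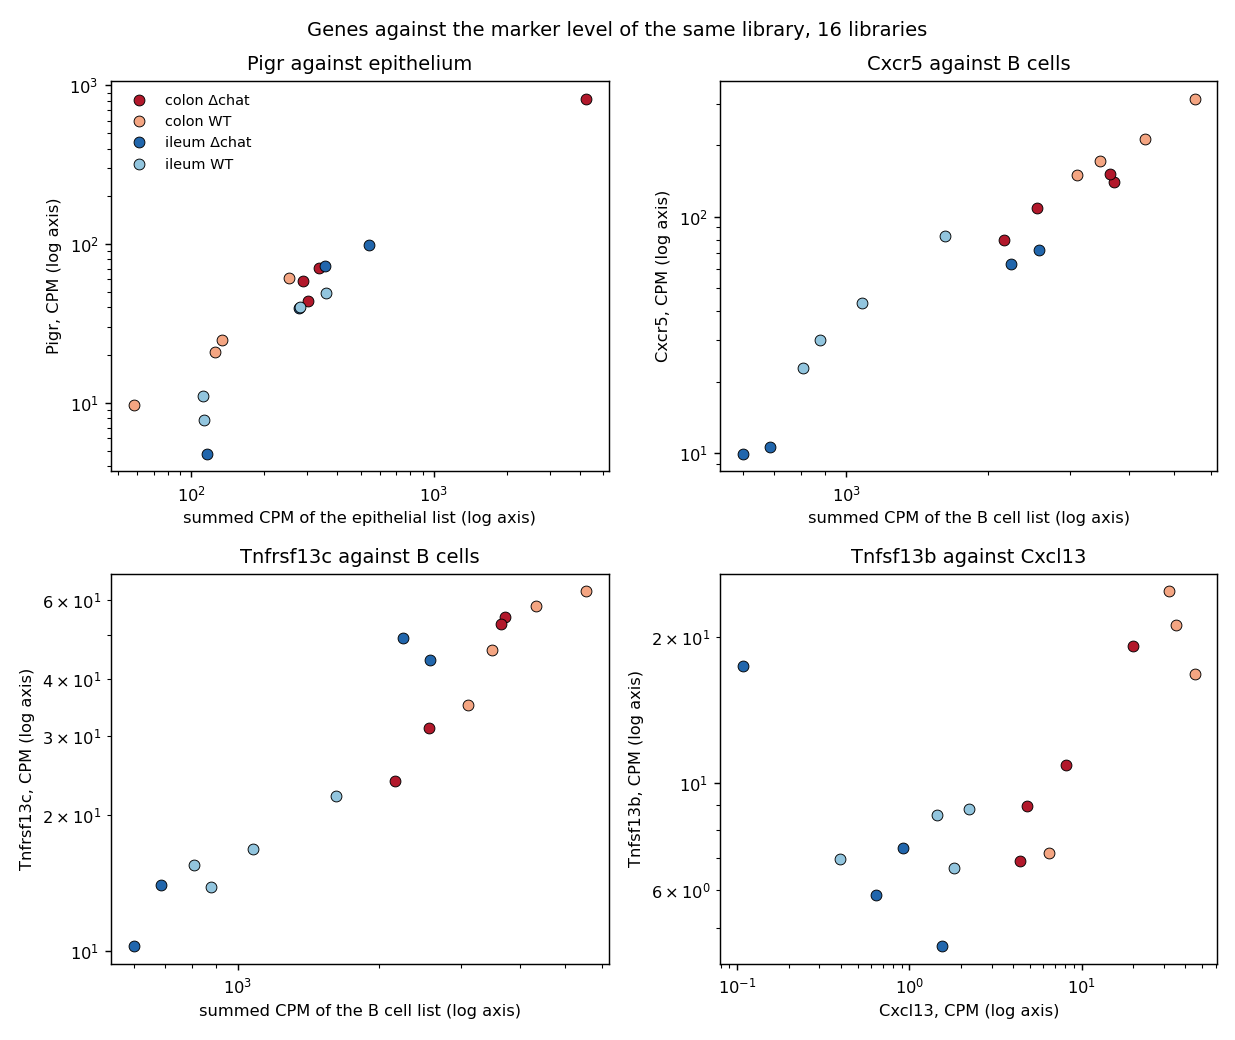
Genes against the marker level of the same library, in CPM on log axes, with a point for each library. Pigr is set against the summed CPM of the epithelial list. Cxcr5 and Tnfrsf13c are set against that of the B cell list, and Tnfsf13b against Cxcl13. As log2 CPM minus the mean log2 CPM of the B cell list, not drawn here, Cxcr5 was lower in every Δchat library than in every WT library. This held in colon and in ileum, by -0.38 and -0.82 between means.

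Whether the strain effect differed between tissues was tested as an interaction. None of the 8 genes was called, against 9 of 15198 genes (0.0592%), or 3 genes with the mouse as a block. Tnfsf13 had the smallest p, with an effect in ileum minus colon of -1.10 ± 0.47 on the log2 scale (edgeR adjusted p = 0.628), and -0.33 when summed with Tnfsfm13 (adjusted p = 0.650). An effect in 1 tissue is therefore not shown to differ from that in the other for any of these genes.

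The tissue comparison set ileum against colon within each strain. The fit did not pair the colon and ileum libraries of a mouse, and an alternative with the mouse as a block changed no member call. In Δchat mice Tnfrsf13b was called higher, as were 8.31% of 15198 genes, and Cxcl13 lower, as were 5.03%. In WT mice Cxcl13, Cxcr5 and Tnfrsf13c were called lower, as were 15.1% of genes. The 2 comparisons share no library, but the 4 groups were fitted together.

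Cxcl13 had the largest tissue difference of the 8 genes in both strains. It had 1.55, 0.108, 0.919 and 0.641 CPM in ileum Δchat, against the colon Δchat values above, and 1.80, 0.397, 2.21 and 1.44 CPM in ileum WT. Every ileum library was below every colon library, as for 6.12% of genes in Δchat and 18.3% in WT mice. Cxcl13 fell 11.7-fold in ileum of Δchat mice (log2 -3.55 ± 0.75, edgeR adjusted p = 0.00746) and 20.4-fold in ileum of WT mice (log2 -4.35 ± 0.74, adjusted p = 0.00134), and was lower in 4 of 4 mice of each strain. With the B cell markers as a covariate the WT value was -3.98 (edgeR adjusted p = 0.0901).

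Cxcr5 was lower in ileum in 4 of 4 mice of each strain. It fell 4.78-fold in ileum of WT mice (log2 -2.26 ± 0.62, edgeR adjusted p = 0.0168), a call lost without colon WT replicate 1 (adjusted p = 0.0533). Its groups did not overlap in either strain, as for 18.3% of genes in that direction in WT mice and 6.12% in Δchat mice. In Δchat mice the value of -1.63 ± 0.61 was not called (edgeR adjusted p = 0.0951). Cxcr5 was called there without ileum Δchat replicate 1 (-2.10, edgeR adjusted p = 0.0466) and by DESeq2 (-1.64, adjusted p = 0.0423). Tnfrsf13c fell 2.99-fold in ileum of WT mice (log2 -1.58 ± 0.45, edgeR adjusted p = 0.0193), and the call was lost without colon WT replicate 1, ileum WT replicate 2 or ileum WT replicate 4 (adjusted p = 0.0598, 0.0529 and 0.0511). All 15 B cell markers were called lower in ileum of WT mice, with a summed level of 808 to 1624 CPM in ileum WT and 3098 to 5541 CPM in colon WT. With their mean as a covariate, Cxcr5 was at 0.32 and Tnfrsf13c at 0.37 on the log2 scale in WT mice, neither called. In Δchat mice the same covariate turned Tnfrsf13c, at -0.47 ± 0.44 without it (edgeR adjusted p = 0.507), to 0.59, called higher in ileum (adjusted p = 0.0452).

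Tnfrsf13b went the other way. In Δchat mice it rose 1.64-fold in ileum (log2 0.72 ± 0.19, edgeR adjusted p = 0.0223), without overlap, as in 9.47% of genes in that direction, and was higher in 4 of 4 mice. The call was lost without colon Δchat replicate 3, colon Δchat replicate 4 or ileum Δchat replicate 4 (adjusted p = 0.0625, 0.0635 and 0.0523). In WT mice its log2 fold change was 0.28 ± 0.19 (edgeR adjusted p = 0.279). Plasma cell markers were higher in ileum as well, 13 of 17 called in Δchat mice and 11 in WT mice, with 1 lower; their part was not tested.

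The ligands did not pass edgeR's test between tissues, although Tnfsf13b did in WT mice under some alternatives. Tnfsf13b had a log2 fold change of -1.18 ± 0.44 in WT mice (edgeR adjusted p = 0.0543) and -0.38 ± 0.43 in Δchat mice (adjusted p = 0.599). The WT difference was called without colon WT replicate 4 (adjusted p = 0.0262), by DESeq2 (-1.16, adjusted p = 0.0256) and with the B cell covariate (-2.27, adjusted p = 0.0476). Tnfsf13 was at 0.63 ± 0.34 in WT mice (edgeR adjusted p = 0.173), with every ileum WT library above every colon WT library, as in 16.8% of genes in that direction. Macrophage and monocyte markers, in contrast, were called higher in ileum for 10 of 16 genes in Δchat mice and 12 in WT mice, among them Csf1r at log2 1.90 and 2.43. Tgfb1 was not called in either strain. Pigr was at -2.19 ± 1.06 in Δchat mice (edgeR adjusted p = 0.193) and -0.13 ± 1.03 in WT mice (adjusted p = 0.939), but with the epithelial covariate it was called lower in ileum of WT mice (-0.71, adjusted p = 0.0374).

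**Figure D5:**
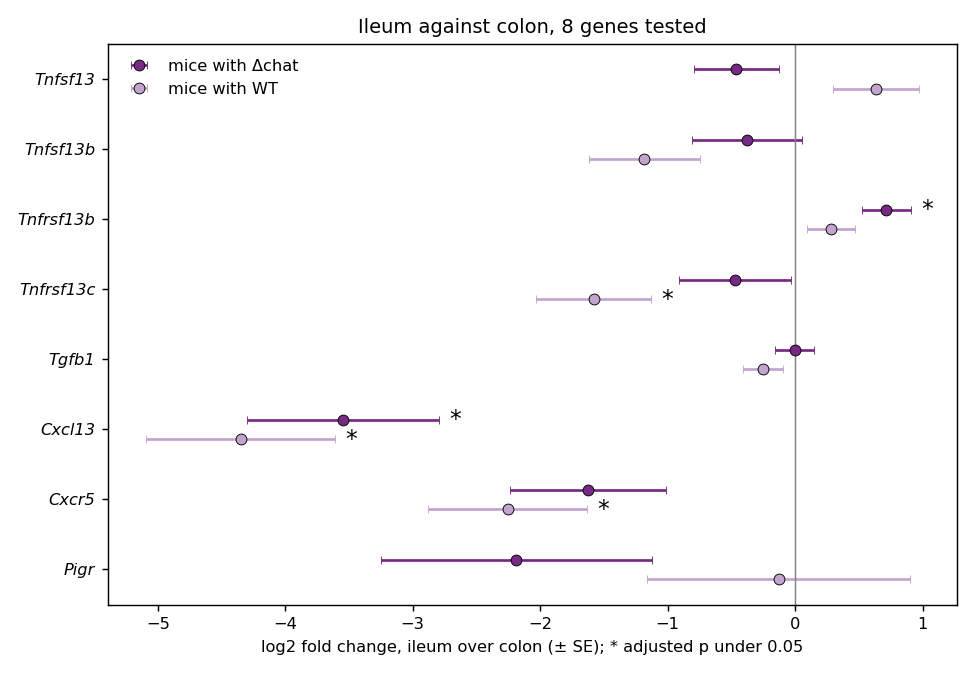
Log2 fold change of ileum over colon for each gene in Δchat and in WT mice, with its standard error. Cxcl13 is lowest in both strains, at -3.55 and -4.35, and Tnfrsf13b is above 0 in both.

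Other genes of the same pathways, listed with earlier results of these data known, were not called between strains in either tissue in any of the 6 pathway lists. The counts between tissues that follow stand beside 8.31% of all genes called higher and 5.03% called lower in ileum of Δchat mice, and 13.7% higher and 15.1% lower in WT mice. Several of them are near those shares, and nothing particular to the lists is read from them. In all, 2 of 19 further BAFF and APRIL pathway genes were called higher in ileum of Δchat mice, Tnfrsf17 (log2 1.29 ± 0.26), the BCMA receptor, and Sdc1 (1.07 ± 0.19), a plasma cell proteoglycan that binds APRIL. In WT mice 1 was higher, Sdc1 (0.67 ± 0.19), and 3 were lower, among them Rel (-1.03 ± 0.24), a B cell NF-kB subunit. Of 18 follicle chemokine and lymphotoxin genes, 1 was higher and 3 lower in ileum of Δchat mice and 4 were higher and 4 lower in WT mice. Ccr6, a homing receptor of B cells in mucosal follicles, was called at -1.46 ± 0.42 in Δchat and -2.29 ± 0.43 in WT mice, and Ccl21a, a lymphoid chemokine, at -2.44 ± 0.67 in Δchat mice. Of 23 class switching and gut tropism genes, 4 were higher and 1 lower in Δchat mice and 6 higher and 4 lower in WT mice; Ccr9, the small intestinal homing receptor, was at 2.94 ± 0.22 and 2.95 ± 0.22. Medians of these lists lay between -0.34 and 0.11, beside -0.02 in Δchat and -0.04 in WT mice over all genes.

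The genes whose levels followed each member most closely were ranked by Pearson r of log2 CPM over the 16 libraries. Pigr was nearest to Dsp (0.992), Krt8 (0.989) and Cldn3 (0.989). Cxcr5 was nearest to B3gnt5 (0.982), Fcer2a (0.982) and Whrn (0.981), and Tnfrsf13b to St6gal1 (0.967), Manea (0.964) and Mzb1 (0.942). Cxcl13 was nearest to Twsg1 (0.983), and Tnfsf13 to Sult1a1 (0.950). These libraries share their tissue and strain groups and their cell makeup.

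Promoters are shown for the 2 genes that matched the E-box or ISRE among 4 motifs searched, out of 8 of the 9 genes matched in RefSeq (GRCm38.p6). A kB-type motif was in 50.8% of all promoters, and GAGGAAG, a PU.1 motif present in 13.6%, was in none of the members' windows. Each window spans 250 bases before to 50 after a gene start. The Pigr window, chr1:130826434-130826733 on the plus strand, holds CACGTG, an E-box that is present in 7.15% of all promoters and is marked in capitals. A Tnfsf13b window, chr8:10006383-10006682 on the plus strand, holds an interferon-stimulated response element (ISRE), marked in capitals and present in 3.44% of promoters. Both strands were searched, and a match is a description of letters only.
Pigr: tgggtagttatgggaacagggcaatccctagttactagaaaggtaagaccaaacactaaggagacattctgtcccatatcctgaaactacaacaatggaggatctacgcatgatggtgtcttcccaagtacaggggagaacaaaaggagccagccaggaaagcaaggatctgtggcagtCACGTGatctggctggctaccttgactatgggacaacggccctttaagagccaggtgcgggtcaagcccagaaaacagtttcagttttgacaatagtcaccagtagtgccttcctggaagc
Tnfsf13b: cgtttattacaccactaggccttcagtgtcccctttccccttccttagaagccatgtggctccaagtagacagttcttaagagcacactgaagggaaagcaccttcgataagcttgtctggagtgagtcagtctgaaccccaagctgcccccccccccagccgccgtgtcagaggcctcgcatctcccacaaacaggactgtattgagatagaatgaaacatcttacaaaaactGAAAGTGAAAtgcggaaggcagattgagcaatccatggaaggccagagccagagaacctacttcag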

How the data were processed

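Lamina propria immune cells were profiled by bulk RNA-seq in 16 libraries. The values are estimated counts per gene, made by the authors with cutadapt 5.0 and Salmon 1.4.0 on build GRCm39 per the submitters' processing notes; 34.8% to 40.7% of values per library were not whole and all were rounded to whole numbers. Strandedness of the counting is not given in the sources used here, so antisense overlaps cannot be separated. Gene symbols were matched for 35105 of 35647 rows; rows without one held 0.0853% to 0.105% of counts.

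edgeR 4.0.16 (R 4.3.3) was run with its default expression filter, TMM scaling and robust quasi-likelihood tests, 2-sided, Benjamini-Hochberg adjusted over all genes tested. Strain was tested within the 8 libraries of a tissue, and tissue and interaction in 1 fit of 16. CPM values are scaled over 16 libraries; fold changes come from the fits. Ratios to markers used log2 CPM with a prior count of 2 and exact permutation tests. P-values set a difference between groups against the spread between these libraries. DESeq2 1.42.0, other filters and scalings, covariates, blocks and left-out libraries were alternatives. The tests were checked on simulated data.

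The members and lists were chosen with earlier results of these data known. All 9 members were named, with at most 4 called genes per list by smallest p and the 3 genes most like each member with at least 5 CPM. Deviations of colon and ileum libraries of the same mouse correlated at -0.18 to 0.27; the pairing was read from matching labels.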

Additional observations from a re-analysis of the deposited data

Results flagged for a closer look

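A total of 3 values stood far from the other 3 libraries of their group, among 60 groups of 4 checked by Dixon's criterion; chance alone flags some groups at that criterion. Pigr was 823 CPM in colon Δchat replicate 3, against 44.1 to 70.4 CPM in the others, the library with the summed epithelial level of 4235 CPM. Log2 Pigr over epithelial markers was 2.50 in colon Δchat replicate 4, against 3.17 to 3.24 in the others. Log2 Tnfsf13b over macrophage and monocyte markers was -2.10 in colon WT replicate 4, against -0.85 to -0.71 in the others. The same WT library had the lowest Cxcl13 of its group, 6.44 CPM.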

How the results depend on the processing

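The tissue difference of Cxcl13 in Δchat mice kept its direction and call in all 16 alternatives run for it. Calls between strains depended on the tool. In colon (1 gene) there were 308 with DESeq2, 2 with the epithelial covariate, 0 with the replicate block, 10 in 1 fit over 16 libraries and 3 with the B cell covariate, an added alternative; left-out replicates gave 0 to 3. DESeq2 called 1 member. In ileum (3 genes) there were 0 with RLE scaling, 5 with no filter, 0 with a 1 CPM filter, 375 with DESeq2, 0 with the epithelial covariate, 0 with the replicate block, 42 in 1 fit and 34 with the B cell covariate, which called 1 member; left-out replicates gave 0 to 247. The interaction (9 genes) gave 58 with DESeq2, 1 with the epithelial covariate, 3 with the replicate block and 0 to 35 with left-out replicates. Tissue calls with left-out replicates were 1315 to 2177 in Δchat (1 to 3 members) and 2606 to 4160 in WT mice (1 to 4 members); the B cell covariate left 416 in WT mice, 1 of them a member (Tnfsf13b).

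Directions turned as follows, and the cause was not tested. With the epithelial covariate, colon strain values were 0.33 for Tnfrsf13c, 0.30 for Tgfb1 and -0.24 for Pigr, ileum Pigr was -0.092 and its interaction 0.62. With the B cell covariate, colon Tnfrsf13c and Tgfb1 were both 0.19, the Cxcr5 interaction -0.68, Δchat tissue values 0.59 for Tnfrsf13c, now called, and 0.15 for Tgfb1, and WT tissue values -0.24 for Tnfsf13, 0.37 for Tnfrsf13c, 0.32 for Cxcr5 and, without a call, -3.98 for Cxcl13. With the replicate block, ileum Tnfsf13b was -0.027 and Δchat tissue Tgfb1 0.0069; the block changed no member call. Summing Tnfsf13 with Tnfsfm13 gave 0.11 for ileum strain, -0.11 and 0.12 for its ratio to macrophage markers in colon and ileum, and 0.11 for its ileum ratio to Tnfsf13b. With the first 5 markers, colon Pigr over epithelium was 0.052. With left-out replicates the ranges were -0.13 to 0.10 for colon Tgfb1, -0.40 to 0.37 for ileum Tnfsf13b, -0.69 to 0.26 for ileum Cxcr5, -0.15 to 0.10 for Δchat tissue Tgfb1, -0.55 to 0.53 for WT tissue Pigr, -0.16 to 0.099 and -0.019 to 0.54 for Pigr over epithelium in colon and ileum, -0.094 to 0.46 for colon Tnfsf13 and -0.11 to 0.11 for ileum Tnfsf13b over macrophages. Replicate numbers shared between strains gave correlations of -0.27 to 0.33, and 2 of 16 libraries correlated best with their own number. With 3 libraries against 4, the exact test cannot go below 0.0571.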

Other observations

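The IL-21 and TGF-beta pathway lists are given as counts, beside 8.31% of all genes called higher and 5.03% called lower in ileum of Δchat mice, and 13.7% higher and 15.1% lower in WT mice; neither list was tested against other genes. Of 19 genes for IL-21 signalling and helper cytokines, 3 were called higher in ileum of Δchat mice and 7 higher and 2 lower in WT mice, among them Il10 (log2 2.01 ± 0.32 in WT), a regulatory cytokine. Of 25 further TGF-beta pathway genes, 7 were higher and 2 lower in Δchat mice and 7 higher and 1 lower in WT mice. Runx2, a transcription factor that acts with SMADs, was at 1.43 ± 0.16 in Δchat and 1.25 ± 0.16 in WT mice, and Furin, the protease that processes the TGF-beta precursor, at 0.47 ± 0.11 and 0.71 ± 0.11.

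Of 6 eosinophil markers tested, Alox15, a lipoxygenase, was the 1 called between strains in ileum, at log2 -3.17 ± 0.34 (edgeR adjusted p = 0.0498). The call was lost with RLE scaling, the 1 CPM filter, the epithelial covariate, the replicate block, and without ileum Δchat replicate 1 or 4 or ileum WT replicate 1, 2 or 3, since no gene was called in ileum under any of these.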
